A study of Mus musculus with 6 samples.

Results

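Histone acetylation is written by acetyltransferases, read by bromodomain proteins and erased by deacetylases, and 42 mouse genes of this machinery were followed here through UTX CUT&Tag. They were chosen by name, as 13 writers, 8 readers, 17 deacetylases and 4 scaffolds of deacetylase complexes, and were found through the gene symbol that the authors gave to each binding site. Of the 42 genes, 23 had at least 1 of the 6739 listed sites, and they held 35 sites between them. UTX, the product of Kdm6a, was profiled with an antibody in Ly108+CXCR6- CD8+ T cells sorted from the pancreatic lymph node. The compared groups were 3 samples of UTX-deficient cells, from NY8.3 mice with UTX deleted in T cells (UTXTCD.NY8.3), and 3 samples of WT cells, from NOD.NY8.3 mice. Both groups thus carried NY8.3, a transgenic T cell receptor on the diabetes-prone NOD background. The labels give neither the Cre driver, the deleted part of Kdm6a nor the age of the mice, and they do not say whether the samples of a group came from separate animals. The p-values below therefore measure the spread between these samples, which may be technical. The comparison asked which regions UTX binds.

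Lysine acetylation loosens the hold of histones on DNA and creates a docking surface for bromodomains. The writers p300 and CBP acetylate lysine 27 of histone H3, the residue from which UTX removes methyl groups, so acetyl and methyl groups cannot share that lysine. Deacetylases act mostly inside large corepressor complexes, and several are regulators of T cell development and activation. CUT&Tag cuts and tags DNA next to an antibody-bound protein, so read number at a site measures the protein's presence there and not the expression of the gene.

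Group values per site are in the authors' deposited table, and whole reads per library were recovered from them for 6732 sites, among them all 35 of the acetylation genes. The recovered libraries carry no replicate number and are given from deepest to shallowest. Relative to a mean of 1, depth was 1.93, 1.07 and 0.00577 in the UTX-deficient libraries, against 1.28, 0.916 and 0.792 in the WT libraries. The shallowest UTX-deficient library was close to empty and held no read at any acetylation gene site, so results are given with all 6 libraries and with the 5 others. In it 1 read counts as 173 normalized reads, so its 0 at a site cannot tell lost from kept UTX signal. The UTX-deficient means, SDs, 6-library fits and comparisons of overlap below count that 0 as a value. Only 2 UTX-deficient libraries were well covered. At the Kdm6a site the UTX-deficient libraries had 8, 12 and 0 reads, against 65, 48 and 35 in the WT libraries, which does not check the genotype because the deleted part is not given. Of 8 markers of CD8 T cells and of the sort, 6 had a listed site, and Cd3g and Trac had none. Of the markers of B cells, myeloid cells, NK cells and pancreas, none of 5, 4, 3 and 5 genes did. A listed site was assigned to 22.1% of all protein-coding genes, so lists this short do not check the purity of the sort.

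The sites of 10 genes reached into the 250 bases before a start of their own gene. The upstream sequences of the 6 with the smallest FDR are printed because the UTX sites reach into them, by 65 to 250 bases; they are from RefSeq, build GRCm38.p6, each 5′ to 3′ on the gene's strand. Capitals mark CCGGAAG (ETS), GGGCGG (SP/KLF) and GCGCATG (NRF1), each searched with its reverse complement; overlapping matches run together. Brpf1 lies at chr6:113306887-113307136 on the plus strand, Brd2 at chr17:34122608-34122857 on the minus strand and Sin3a at chr9:57076126-57076375 on the plus strand. Rcor1 lies at chr12:111039117-111039366 on the plus strand, Hdac2 at chr10:36974294-36974543 on the plus strand and Brd3 at chr2:27475399-27475648 on the minus strand. The Sin3a and Brd3 windows lie before internal starts of those genes.
Brpf1: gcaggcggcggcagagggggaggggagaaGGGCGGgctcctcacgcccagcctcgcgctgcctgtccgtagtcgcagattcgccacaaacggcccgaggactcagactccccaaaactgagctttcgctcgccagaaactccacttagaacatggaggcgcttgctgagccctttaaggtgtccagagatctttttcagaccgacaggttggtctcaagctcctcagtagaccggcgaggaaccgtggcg
Brd2: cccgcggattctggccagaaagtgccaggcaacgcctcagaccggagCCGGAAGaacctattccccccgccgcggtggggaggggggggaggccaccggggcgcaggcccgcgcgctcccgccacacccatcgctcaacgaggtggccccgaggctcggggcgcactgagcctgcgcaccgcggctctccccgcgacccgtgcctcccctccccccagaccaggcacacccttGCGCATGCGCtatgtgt
Sin3a: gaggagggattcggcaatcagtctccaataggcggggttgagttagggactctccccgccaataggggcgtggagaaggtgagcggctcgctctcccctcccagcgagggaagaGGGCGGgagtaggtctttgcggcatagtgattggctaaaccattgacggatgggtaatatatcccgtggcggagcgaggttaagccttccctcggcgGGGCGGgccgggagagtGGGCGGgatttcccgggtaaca
Rcor1: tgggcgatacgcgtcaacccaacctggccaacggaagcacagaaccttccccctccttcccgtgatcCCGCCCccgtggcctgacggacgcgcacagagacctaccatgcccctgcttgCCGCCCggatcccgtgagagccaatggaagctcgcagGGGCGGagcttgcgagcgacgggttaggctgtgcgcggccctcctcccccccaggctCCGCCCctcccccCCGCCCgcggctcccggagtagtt
Hdac2: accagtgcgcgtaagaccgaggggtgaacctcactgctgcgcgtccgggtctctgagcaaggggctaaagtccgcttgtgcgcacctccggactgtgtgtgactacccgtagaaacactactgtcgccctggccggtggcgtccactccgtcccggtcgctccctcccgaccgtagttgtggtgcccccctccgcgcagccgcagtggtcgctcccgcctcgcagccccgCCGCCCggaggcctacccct
Brd3: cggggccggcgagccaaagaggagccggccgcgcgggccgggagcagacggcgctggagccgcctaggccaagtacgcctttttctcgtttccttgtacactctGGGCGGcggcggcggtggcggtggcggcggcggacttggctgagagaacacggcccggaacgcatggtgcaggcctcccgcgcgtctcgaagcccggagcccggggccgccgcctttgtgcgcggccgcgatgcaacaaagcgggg

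Within the 10 windows the SP/KLF letters were found in 9, against 32.74% of all 32851 promoter windows of the table. The ETS letters were in 4 of the 10 windows, those of Brd2, Ncor1, Brd9 and Hat1, against 6.907% of all windows. The NRF1 letters occurred in 1 of 10, the Brd2 window, against 3.236%. Neither TGTGGTT (RUNX), present in 4.396% of all windows, nor TGACGTC (CRE), present in 2.782%, was found in the 10, both searched on both strands. Median GC content was 69.6% in the 10 windows and 52.4% in all windows, and the median number of CpG was 27 in the 10 and 6 in all. The motif counts are not adjusted for that difference in base composition, and its part in them was not tested.

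At all 35 sites of the acetylation genes, UTX-deficient cells had the lower UTX signal. Of all listed sites, 99.7% were lower, and the table lists only sites with an FDR under 0.05, so the direction is not particular to these genes. Their log2 folds in the authors' deposited table had a median of -3.55 and ran between quartiles of -4.07 and -3.13, beside a median of -3.51 over all sites lower in UTX-deficient cells. Averaged over the 35 sites, the UTX-deficient libraries held 1.11, 4.18 and 0 normalized reads per site, against 59.4, 65.1 and 54.0 in the WT libraries. The means were 1.76 ± 2.17 in UTX-deficient cells and 59.5 ± 5.55 in WT cells (SD, n = 3 each). Over all sites lower in UTX-deficient cells they were 1.63 ± 1.90 in UTX-deficient cells and 41.1 ± 3.69 in WT cells. The near-empty library enters both UTX-deficient means and SDs as a 0. Without it the UTX-deficient means were 2.64 at the 35 sites and 2.45 over all sites lower in UTX-deficient cells. WT exceeded UTX-deficient cells 33.7-fold at the 35 sites with all libraries and 22.5-fold without the near-empty one. Over all sites lower in UTX-deficient cells these ratios were 25.2 and 16.8. The median WT level was 31.6 normalized reads at the 35 sites and 30.7 over all sites lower in UTX-deficient cells, closer than the means. At none of the 35 sites did the groups overlap, where 99.8% of the solved sites were lower without overlap. By limma on the recovered reads, all 35 were lower at an adjusted p under 0.05, with 6 libraries and with 5, where 99.8% of the solved sites were called in each fit. The listed sites had already been selected for a difference on the same libraries, so limma's p is no independent support, and with TMM factors computed on these sites limma called 0 of the 35 (largest adjusted p = 0.721). At an FDR under 0.01 in the authors' deposited table stood 29 of the 35, beside 86.6% of the listed sites, and under 0.001 stood 26, beside 72.7%. Many UTX-deficient values rest on few reads, since 14 of the 35 sites held 3 reads or fewer over the UTX-deficient libraries.

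**Figure D1:**
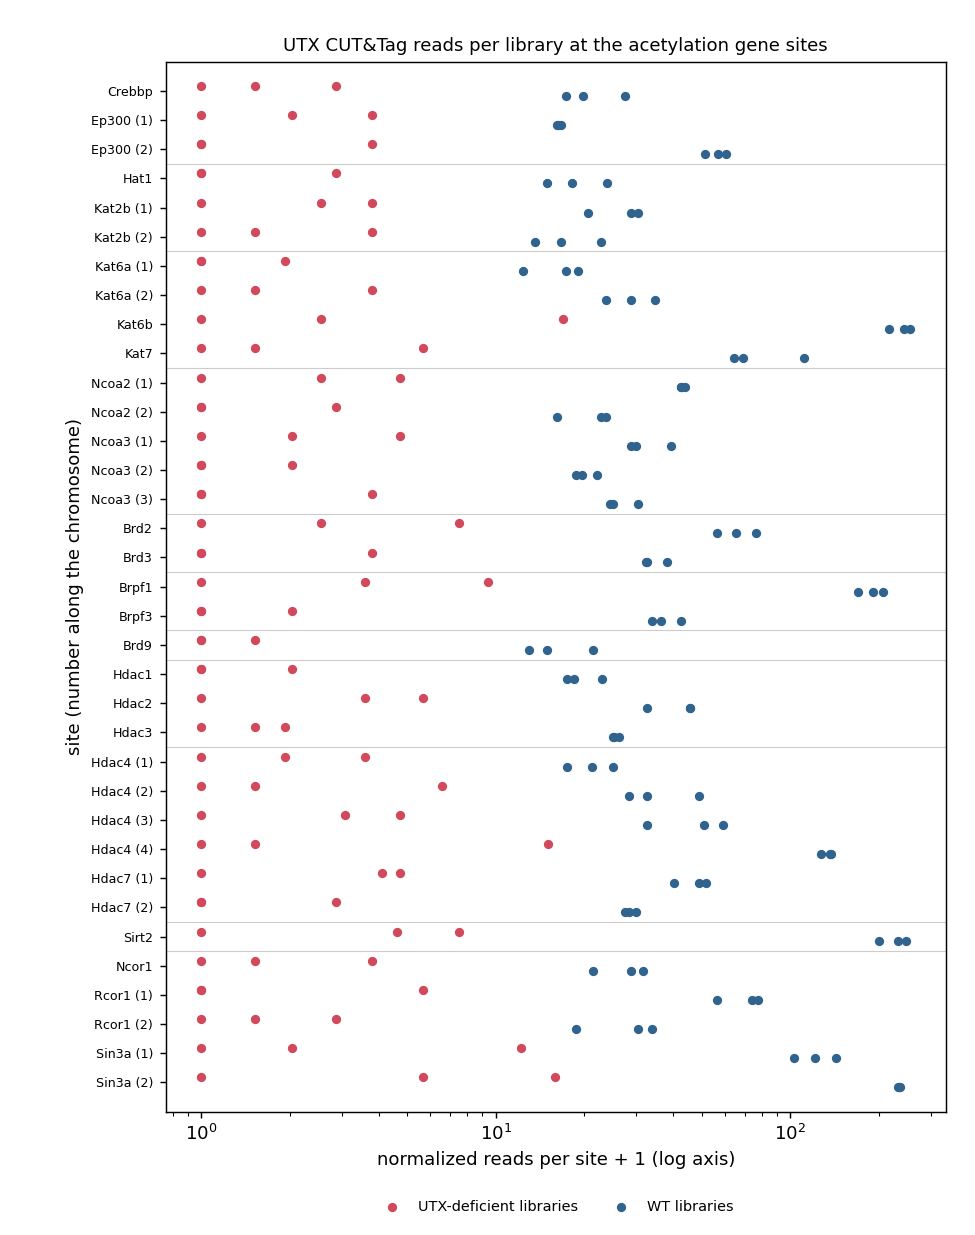
Normalized reads plus 1 (log axis) at each of the 35 sites, 1 row per site and 1 point per library, with UTX-deficient libraries above WT libraries in each row and grey lines between roles; a number in brackets orders a gene's sites along the chromosome. Each WT point lies to the right of each UTX-deficient point of its row, and the near-empty library is the point at 1, no reads.

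A listed site was assigned to 54.76% of the 42 genes, beside 22.1% of all 21900 protein-coding genes. The 42 genes were set with earlier results of these data known, so this share is a description, with no test. By class, 9 of 13 writers, 5 of 8 readers, 6 of 17 deacetylases and 3 of 4 scaffolds had one. The genes with a site were long, with a median length of 56378 bp, against 20031 bp for the 19 without, and 26225 bp for all protein-coding genes with a site; the part of length in the share was not tested. Without a listed site were the writers Kat2a, Kat5, Kat8 and Ncoa1, the readers Brd1, Brd7 and Brd8, the scaffold Sin3b, and the deacetylases Hdac5, Hdac6, Hdac8, Hdac9, Hdac10, Hdac11, Sirt1, Sirt3, Sirt5, Sirt6 and Sirt7. As the table holds differing sites alone, a gene with no listed site is not shown to lack UTX. More than 1 site was assigned to 9 of the 23 genes, 39.13%, beside 18.71% of all 5184 genes with a site.

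**Figure D2:**
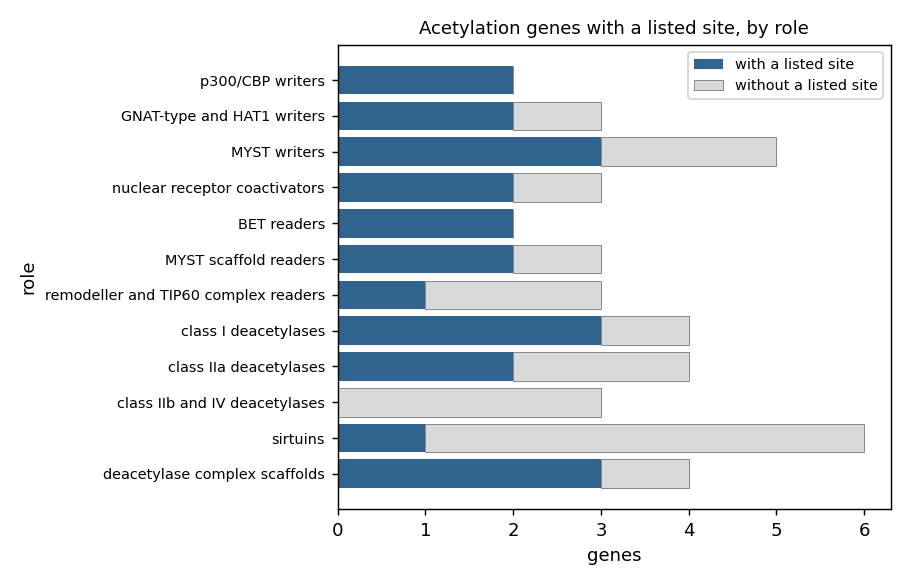
Number of genes with (blue) and without (grey) a listed site, 1 bar per role. Both p300/CBP genes and both BET genes had a site, 1 of 6 sirtuins did, and none of the 3 class IIb and IV deacetylases did.

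Ep300 and Crebbp, which encode p300 and CBP, both carried UTX sites upstream of their starts. The stronger Ep300 site, at chr15:81585043-81585443, position -971 relative to the start in bp, had 0, 3 and 0 reads in the UTX-deficient libraries, against 76, 51 and 40 in the WT libraries. The groups were far apart, with -4.98 as the log2 fold and 1.04e-13 as the FDR in the authors' deposited table. The other Ep300 site lay farther upstream, at position -46412 and chr15:81539602-81540002, and had 2, 3 and 0 reads in UTX-deficient libraries, against 20, 14 and 12 in WT libraries. Its value of -2.17 in the authors' deposited table (log2 fold, FDR 0.0323) was the smallest in size of the 35. The nearest gene end to that distal site was that of Gm5218, so its assignment to Ep300 is the authors'. For the single Crebbp site, at position -864, the log2 fold in the authors' deposited table was -3.14.

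Kat2b, the GNAT-family acetyltransferase PCAF, and Hat1, which acetylates newly made histone H4, had some of the weakest sites. Kat2b had 3, 3 and 0 reads in the UTX-deficient libraries, against 25, 27 and 22 in the WT libraries, at chr17:53568130-53568530 inside the gene. A second Kat2b site, at chr17:53587373-53587773, had 1, 3 and 0 reads in UTX-deficient libraries, against 20, 20 and 10 in WT libraries. Both sites separated the groups, as did 99.8% of the solved sites. The log2 folds of the Kat2b sites in the authors' deposited table were -3.08 and -2.30. At the start of Hat1, at chr2:71389064-71389464, the UTX-deficient libraries held 0, 2 and 0 reads, against 22, 21 and 11 in the WT libraries. With an FDR of 0.0382 in the authors' deposited table, Hat1 lay nearest to the threshold, next to Kat6a at 0.0363 and Kat2b at 0.0359.

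The MYST writers Kat6a, Kat6b and Kat7, the catalytic subunits MOZ, MORF and HBO1, had 4 sites. Kat6b, at chr14:21500454-21500854 inside the gene, had 1.55, 15.8 and 0 normalized reads in the UTX-deficient libraries, against 242, 254 and 215 in the WT libraries. Its WT mean of 237 ± 20.3 was the highest of the 35 sites, with Sin3a next at 233 ± 2.21, within the spread of Kat6b (SD, n = 3 each). The second UTX-deficient library stood well above the others there but far under each WT library. The limma difference was -5.18 on the log2(normalized reads + 1) scale (adjusted p = 2.05e-05) with 5 libraries. With 6 libraries it was -6.08 (adjusted p = 3.7e-12), where the 0 of the near-empty library counts as a value. Kat7 had 1, 5 and 0 reads in the UTX-deficient libraries, against 81, 101 and 54 in the WT libraries, 271 bp downstream of a start at chr11:95309775-95310175. Its log2 fold was -4.73 in the authors' deposited table. Of the pair at Kat6a, one overlapped the gene, 66 bp from the nearer boundary of the annotated gene, and the other 20590 bp outside it; the authors' deposited table lists -3.54 and -2.69 as their log2 folds.

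Ncoa2 and Ncoa3, p160 coactivators that bring acetyltransferases to nuclear receptors, had 5 sites. The strongest was inside Ncoa2 at chr1:13372462-13372862, with 3, 4 and 0 reads in the UTX-deficient libraries, against 55, 38 and 33 in the WT libraries. After scaling by depth the WT values were nearly equal, 42.1 ± 0.839 normalized reads, against 1.76 ± 1.87 in UTX-deficient cells (SD, n = 3 each). Ncoa3 had 3 sites spread along chromosome 2. The first, at chr2:165982850-165983250 and outside the gene, had 2, 4 and 0 reads in UTX-deficient libraries, against 37, 35 and 22 in WT libraries. The second, at chr2:165992510-165992910 and 73 bp from a gene end, had 2, 0 and 0 reads in UTX-deficient libraries, against 27, 17 and 14 in WT libraries. The third, at chr2:166031091-166031491 inside the gene, had 0, 3 and 0 reads in UTX-deficient libraries, against 30, 27 and 19 in WT libraries. In none of the 3 did the groups overlap, nor at 99.8% of the solved sites. The log2 folds of the 3 Ncoa3 sites in the authors' deposited table were -3.42, -3.28 and -3.27 in that order.

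Among the readers, Brpf1, the scaffold that joins MYST writers to chromatin, had one of the stronger sites. The UTX-deficient libraries held 5, 9 and 0 reads, against 243, 188 and 134 in the WT libraries, at chr6:113306551-113306951, over the promoter printed above. In the authors' deposited table its log2 fold was -5.07 (FDR 2.92e-27). The UTX-deficient mean was 1.94% of the WT mean with all libraries and 2.92% without the near-empty one. Brpf3, a related scaffold, had 2, 0 and 0 reads in UTX-deficient libraries, against 42, 38 and 28 in WT libraries. Brd2 and Brd3, BET proteins that bind acetylated histones and bring in transcription factors, each had a site at a promoter. The Brd3 site was at an internal start, 30173 bp from the nearer end of the annotated gene. For Brd2, at chr17:34122319-34122719, there were 3, 7 and 0 reads in the UTX-deficient libraries, against 82, 69 and 44 in the WT libraries, and the site also overlapped the neighbouring gene H2-DMa. Brd9, a subunit of the non-canonical BAF remodeller, had a weak site at chr13:73937783-73938183 with 1, 0 and 0 reads in UTX-deficient libraries, against 26, 11 and 11 in WT libraries. That window is shared with Trip13, whose promoter the site overlaps as well.

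Among the deacetylases, class I had sites at 3 of 4 genes, class IIa at 2 of 4 and the sirtuins at 1 of 6. In class I, Hdac1, Hdac2 and Hdac3, the catalytic subunits of corepressor complexes, each had 1 site. At the Hdac2 promoter, chr10:36974206-36974606, the UTX-deficient libraries held 5, 5 and 0 reads, against 57, 41 and 25 in the WT libraries. The authors' deposited table lists Hdac2 at a log2 fold of -3.32, beside -3.17 at Hdac1 and -3.92 at Hdac3. The Hdac3 site also overlapped Rell2, so the signal cannot be given to one of these genes.

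Hdac4, a class IIa deacetylase that restrains MEF2 factors, had the most sites of the 42 genes, 4 over 128614 bp. The site at the start, chr1:92180244-92180644, had 1, 15 and 0 reads in the UTX-deficient libraries, against 161, 124 and 108 in the WT libraries. It lay 15258 bp from the nearer end of the annotated gene, so the Hdac4 start used here is an internal one. Farther into the gene, at chr1:92079997-92080397, there were 4, 4 and 0 reads in UTX-deficient libraries, against 64, 53 and 25 in WT libraries. At chr1:92064360-92064760 the UTX-deficient libraries had 1, 6 and 0 reads, against 35, 44 and 25 in the WT libraries. WT signal was thus lower at the inner sites than at the start. The innermost, at chr1:92051630-92052030, held 5, 1 and 0 reads in UTX-deficient libraries, against 21, 22 and 16 in WT libraries. By distance downstream of the start the inner sites lay at 100144, 115781 and 128511 bp, and the WT means there were 46.5, 35.7 and 20.2 normalized reads, beside 133 at the start. Their SDs were 13.5, 10.9 and 3.80 (n = 3 each), so the first pair of inner sites differed by less than its spread, and no test between sites was made. Hdac7, the class IIa deacetylase known from thymocytes, had 2 sites inside the gene. The stronger by FDR, at chr15:97825059-97825459, had 6, 4 and 0 reads in UTX-deficient libraries, against 65, 44 and 31 in WT libraries.

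**Figure D3:**
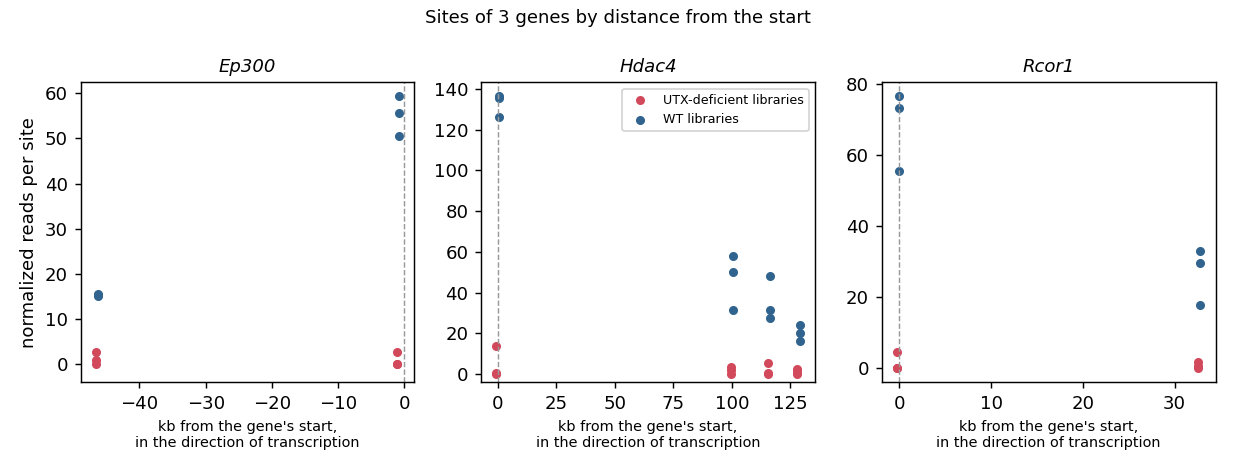
Normalized reads per site against distance from the gene's start in kb, for Ep300, Hdac4 and Rcor1, 1 point per library, with UTX-deficient points set slightly left of WT points and the start dashed. The WT points are highest at the site next to the start in each gene, as at Hdac4, where the WT mean was 133 at its internal start and 20.2 at the innermost site. The 3 genes were not chosen by a set rule. By the nearest start, Sin3a and Kat2b, not shown, had the same order. The start nearest to the stronger Sin3a site is internal. The Sin3a sites lay 1551 and 4130 bp from the nearer end of the annotated gene. Their WT means were 122 and 233, the opposite order from that end. Hdac7 had the opposite order to the genes shown, with WT means of 27.6 at position -4885 and 46.0 at 6236 bp downstream of a start. The Hdac7 starts used are internal. Both sites lay inside the gene, 7850 and 19243 bp from its nearer annotated end in that order.

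Sirt2, an NAD-dependent deacetylase of tubulin and histone H4, was the 1 of the 6 sirtuins followed that had a site. It lay inside the gene at chr7:28781277-28781677, 14725 bp from the Sirt2 start and over the promoter window of Gm19897. The UTX-deficient libraries held 7, 7 and 0 reads, against 296, 225 and 158 in the WT libraries. The groups were separated by a wide gap, and by the authors' deposited table its log2 fold of -5.37 was the lowest of the 35 (FDR 6.1e-32). With limma the difference was -5.26 (adjusted p = 1.09e-05) over 5 libraries, on the log2(normalized reads + 1) scale. Over 6 libraries it was -6.11 (adjusted p = 2.42e-12), where the 0 of the near-empty library counts as a value. The smaller p over 6 libraries is therefore no added support. Both differences were close to those at Kat6b, so the order of the strongest sites depends on the measure. The UTX-deficient mean was 1.5% of the WT mean with all libraries and 2.25% without the near-empty one.

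Of the scaffolds of deacetylase complexes, Sin3a, Rcor1 (CoREST) and Ncor1 had 5 sites. Sin3a had a site at a promoter, chr9:57075921-57076321, with 9, 16 and 0 reads in the UTX-deficient libraries, against 301, 214 and 183 in the WT libraries. Its normalized WT values were close together, 235, 234 and 231, and lay far above the 4.65, 14.9 and 0 of the UTX-deficient libraries. The other Sin3a site, 2579 bp away at chr9:57073342-57073742, had 2, 12 and 0 reads in UTX-deficient libraries, against 154, 130 and 81 in WT libraries. The promoter site also overlapped 2700012I20Rik. It lay 4130 bp from the nearer end of the annotated gene, so the Sin3a start used there is an internal one. For Rcor1, the promoter site at chr12:111039019-111039419 had 0, 5 and 0 reads in UTX-deficient libraries, against 98, 67 and 44 in WT libraries, and the site 32667 bp downstream had 1, 2 and 0 reads in UTX-deficient libraries, against 42, 27 and 14 in WT libraries. Ncor1, the scaffold that activates Hdac3, had 1 site at its promoter, where the authors' deposited table lists a log2 fold of -3.38.

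By WT level, the authors' log2 folds were smallest in size at the weakest sites and did not grow further at the top. The 8 sites under 20 normalized reads in WT were listed with log2 folds between -3.28 and -2.17 in the authors' deposited table, with a median of -2.79. The 17 from 20 to 50 had a median of -3.54 there, the 4 from 50 to 100 one of -4.77 and the 6 at 100 or more one of -4.37 in the authors' deposited table. In the authors' deposited table the UTX-deficient concentration has a floor of 0, at which 14 of the 35 sites stood, and the part of that floor in the relation was not tested. The deposited fold is not the plain difference of the concentrations, which at Hat1 were 0 and 4.17, with a fold of -2.58. By recovered reads, the UTX-deficient mean at the 8 weakest sites was 1.12% (Brd9) to 8.31% (distal Ep300) of the WT mean. The median over the 35 was 3.35%, so the weakest sites did not all lose less. Ranked among the listed sites, 18 of the 35 lay above the median WT level. The top 5% by WT level held 6 of the 35, which were the sites of Kat6b, Sirt2 and Brpf1, both of Sin3a and the start site of Hdac4.

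**Figure D4:**
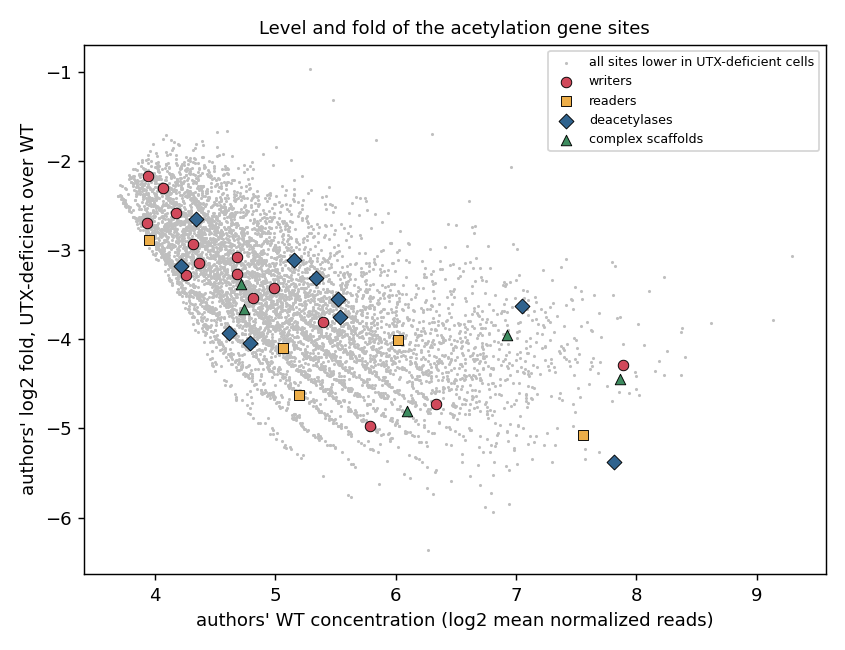
The authors' log2 fold, UTX-deficient over WT, against the authors' WT concentration (log2 mean normalized reads) for all sites lower in UTX-deficient cells (grey) and the acetylation gene sites by class. The coloured points lie within the grey cloud, from Ep300 at -2.17 to Sirt2 at -5.37.

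A site overlapped its assigned gene in 82.86% of the 35, beside 76.37% of all sites lower in UTX-deficient cells that could be placed. Within 1 kb of a gene end lay 42.86% of the 35, beside 53.17% of all, and the median distance was 1556 bp, beside 644 bp. Of the 26 sites whose gene is in the promoter table, 10 reached the gene's own promoter window, 38.46%, beside 54.66% of all. The nearest gene end was that of the assigned gene at 19 of the 35, 54.29%, beside 70.34% of all. Median log2 fold was -3.54 in the authors' deposited table within 1 kb of an end and -3.59 farther away. These shares are descriptions, with no test.

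**Figure D5:**
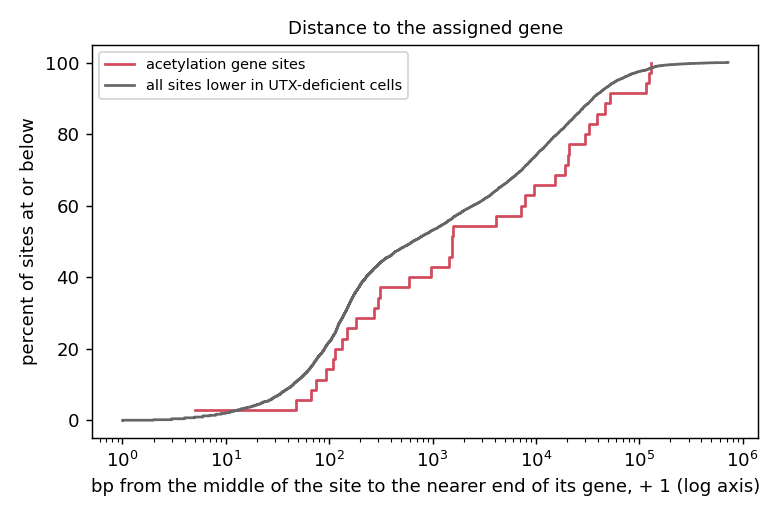
Percent of sites at or below a distance between a site's middle and the closer end of the assigned gene, in bp plus 1 (log axis), for the 35 acetylation gene sites (red) and all sites lower in UTX-deficient cells (grey). The red line runs below the grey over most distances, with medians of 1556 and 644 bp.

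Other subunits of the acetylation complexes were described from a list of 104 further genes, set with earlier results of these data known. Their share with a site is thus a description, with no test. A site was assigned to 68 of them, 65.38%, beside the same 22.1% of protein-coding genes, and all their 92 sites were lower in UTX-deficient cells; the authors' deposited table puts their median log2 fold at -3.88. The SAGA and ATAC subunits, partners of Kat2b, had sites at 14 of 17 genes, and the NuRD subunits, partners of Hdac1 and Hdac2, at 8 of 9. SIN3 complex subunits had them at 9 of 14, TIP60 subunits at 7 of 13, NCoR, CoREST and MiDAC subunits at 7 of 13, MOZ/HBO1, MSL and NSL subunits at 6 of 13 and further bromodomain and YEATS readers at 16 of 24. At Ing1, the SIN3 subunit with the smallest FDR, the UTX-deficient libraries held 6, 11 and 0 reads, against 203, 168 and 121 in the WT libraries. Mbd3 of NuRD had 2, 5 and 0 reads in UTX-deficient libraries, against 144, 105 and 83 in WT libraries. Atxn7l3, of the SAGA deubiquitinase module, had 1, 6 and 0 reads in UTX-deficient libraries, against 155, 107 and 81 in WT libraries. These 3 sites lay within 1 kb of a gene end. The groups did not overlap at any of them, nor at 99.8% of the solved sites. The genes with the smallest FDR of the other roles were Msl2, Trim33, Mideas, Ing3 and Sirt4, listed in the authors' deposited table at log2 folds -4.17, -4.69, -4.15, -3.87 and -3.06.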

How the data were processed

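UTX CUT&Tag was analysed in 3 UTX-deficient and 3 WT samples, through 1 table of the authors' own comparison. The submitters' processing notes name build mm10 and the tools DiffBind, MACS2, Picard, SAMtools, Bowtie2, cutadapt and FastQC, with roles and versions not given in the sources used here. The table has the form of a DiffBind report, per the file headers. The deposited concentrations and fold are log2 values of normalized reads, the fold as UTX-deficient over WT, and the p-value and FDR are the authors' own, each FDR being under 0.05. The FDR and p-value together imply 8293 tests, of which 1554 are outside the table. The sources do not state if peak calling pooled the samples. IgG libraries were not analysed here.

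Member genes were matched by the deposited symbol. Members, further lists and the rule choosing sites to name were all set with earlier results of these data known. The rule names the site with the smallest FDR of each role, the 3 largest and 3 smallest folds, the 3 highest WT levels and every site of genes with 3 or more. Whole reads per library were recovered from the group concentrations, since 3 times the antilog of a concentration is a sum of whole reads times the worth of 1 read of each library. Of 6739 sites, 6732 had a single solution in both groups and 7 had several. Sums shifted at random by 0.05 to 0.45 were solved in 0.0742% of cases in UTX-deficient cells and 0.668% in WT cells. For the test per site, limma 3.58.1 (R 4.3.3) was run on log2(normalized reads + 1) over all 6732 sites, with Benjamini-Hochberg adjustment, after tests on simulated data. Reads carry no molecular identifiers. Distances run from the middle of each 401 bp site to gene ends and starts of RefSeq on GRCm38.p6, the assembly of mm10; 35 of the 42 genes are in its promoter table. Alternatives were stricter FDR thresholds, limits on distance, the nearest gene end, pseudocounts of 0.5 and 5, a filter at a mean of 10 normalized reads, TMM factors and leaving out each library.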

Additional observations from a re-analysis of the deposited data

How the results depend on the processing

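No site of the acetylation genes turned round under any alternative run, though the sign in the TMM run is no check of direction, as given below. At FDR 0.01 the count of sites lower in UTX-deficient cells was 29, and at FDR 0.001 it was 26, where 86.6% and 72.7% of the listed sites passed. It was 23 within 10 kb of an end of the assigned gene, and 15 within 1 kb, by construction fewer sites. Assigning sites by the nearest gene end gave 22, of which 19 carry a member's symbol and 3 another. Genes with a site numbered 21, 15 and 21 under those 3 rules, beside 19.3%, 15.3% and 20% of all protein-coding genes. The median log2 fold was -3.86 at FDR 0.001 and -3.92 within 10 kb. The limma count of 35 stayed at 35 to 35 when any 1 library was left out. With TMM factors computed on these sites, limma called 0 of 35, with differences of -4.20 to -0.68 and a largest adjusted p of 0.721; 6 of the 35 and 573 of all sites had an unadjusted p under 0.05. The table holds almost only differing sites, on which TMM takes the common shift out by construction, and the factor of the near-empty library was 570. The other UTX-deficient libraries had factors of 0.0324 and 0.0916, and dividing by these raised their values. The near-empty library stayed at 0 reads at each of the 35 sites. TMM was not run without that library, so the negative differences under TMM cannot be told apart from its zeros. No paired analysis was possible because the group columns carry no replicate numbers. Depth limits the UTX-deficient values, which rest on 1 to 25 reads per site.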

Other observations

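Some acetylation genes with no site of their own symbol were overlapped by a listed site that the authors gave to a neighbour. The site over Hdac5, a class IIa deacetylase, carries the symbol Mir8101 and had 3, 3 and 0 reads in the UTX-deficient libraries, against 40, 51 and 25 in the WT libraries. Over Sirt3, the main mitochondrial sirtuin, lay a site of Psmd13 with 0, 1 and 0 reads in UTX-deficient libraries, against 17, 15 and 13 in WT libraries. Brd8, a TIP60 complex subunit, was overlapped by a site of Kif20a with 0, 1 and 0 reads in UTX-deficient libraries, against 34, 20 and 16 in WT libraries. The groups did not overlap at these 3 sites, nor at 99.8% of the solved sites. Counting them, 26 of the 42 genes had a listed site over the gene or under their own symbol, beside 25.4% of all protein-coding genes by the same rule. Hdac10 had none over the gene, and the nearest, of Mapk12, lay 2635 bp away.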
